A study of Homo sapiens with 132 samples.

Results

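CDX1, CDX2, HNF4A, GATA4, GATA6, SOX2, SOX9 and FOXA2, 8 transcription factors that set lineage in the gut, were followed in gastric cancer cell lines treated with inhibitors of the EGFR/HER2 receptors. They were chosen by name, as 8 of the 65217 gene identifiers of the count table. RNA was sequenced from 132 libraries of MKN1, MKN7, NCI-N87 and Hs746T cells, established lines derived from metastatic gastric carcinomas. All lines were left untreated or received the HER2 antibody trastuzumab (Tra, 5 μg/ml), the EGFR/HER2 kinase inhibitor afatinib (Afa, 0.5 μM) or trastuzumab + afatinib. MKN1 and Hs746T cells additionally received the EGFR ligand EGF (5 ng/ml), the EGFR antibody cetuximab (Cet, 1 μg/ml) or EGF + cetuximab. Treatments lasted 4 h or 24 h, which gave 44 conditions with 3 replicates each. Each line stands for 1 tumour, so that differences of patient, tumour type and line cannot be told apart. Hs746T cells were kept in DMEM and the other lines in RPMI, so that line and medium go together. Controls were untreated, not solvent-treated.

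The caudal-type homeobox genes CDX1 and CDX2 direct intestinal identity and appear in the stomach when the mucosa takes on intestinal features. HNF4A is a nuclear receptor that works with CDX2 in intestinal epithelium and marks endodermal epithelia in general, the zinc finger factors GATA4 and GATA6 and the forkhead factor FOXA2 act early in endoderm and remain active in the foregut, and SOX2 is linked to gastric and oesophageal identity while SOX9 is linked to progenitor cells. EGFR and HER2 signal through MAPK, whose output can be read from feedback genes such as DUSP6 and SPRY4.

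Libraries held between 25832557 and 69434151 counts on genes, so that 3 counts, taken as the smallest level that can be told from 0, corresponded to 0.0432 to 0.116 CPM (TMM-normalized counts scaled to the library total). This covers counting error only. The epithelial marker genes EPCAM and CDH1 had medians of 507 and 265 CPM in untreated NCI-N87 cells and 633 and 253 CPM in MKN7 cells. In MKN1 cells the EPCAM and CDH1 medians were 25.8 and 2.18 CPM, and in Hs746T cells 35.2 and 0.778 CPM. VIM, a mesenchymal intermediate filament gene, had a median of 410 CPM in MKN1 cells, against 3.68 CPM in NCI-N87 cells. VIM and the other mesenchymal markers, 6 genes, summed to medians of 267 CPM in NCI-N87, 567 in MKN7, 1090 in MKN1 and 3780 in Hs746T cells. FN1, another of them, had 246 ± 18.6 CPM (SD, n = 3) in untreated NCI-N87 cells at 24 h. Of the other 4 epithelial markers, the keratin genes KRT8, KRT18 and KRT19 had higher medians in MKN1 than in MKN7 cells and CLDN4 a lower one. The summed level of all 6 had medians of 19500 CPM in NCI-N87, 18600 in MKN1, 6450 in MKN7 and 865 in Hs746T cells, and KRT18 had medians of 3100 CPM in MKN1 and 963 CPM in MKN7 cells. The 5 leukocyte and endothelial markers summed to 1.42 to 1.75 CPM in untreated NCI-N87, 1.24 to 3.24 in MKN7, 9.37 to 32.5 in MKN1 and 95.6 to 216 CPM in Hs746T libraries. PECAM1, an endothelial adhesion gene, made up most of this sum in MKN1 and Hs746T cells, with medians of 171 CPM in Hs746T and 12.2 CPM in MKN1 cells, and the monocyte gene CD14 had a median of 4.59 CPM in MKN1 cells. PTPRC, CD3E and CDH5, which define leukocytes, T cells and endothelium, were at or below 0.664, 0.0651 and 0.18 CPM. The summed level of the 21 gastric genes had medians of 152 CPM in NCI-N87, mostly from MUC5AC (median 139 CPM), 23.7 in MKN7, 13.9 in MKN1 and 5.05 CPM in Hs746T cells. GKN1, PGC, LIPF and ATP4A, genes of differentiated pit, chief and parietal cells, reached at most 0.188, 0.168, 0.112 and 0.464 CPM. The part of these levels in the differences between lines was not tested. In MKN1 cells at 24 h, the replicate 2 libraries of cetuximab and of trastuzumab + afatinib stood apart. Their deviations from the group means had a Pearson's r across genes of 0.73 with each other and of -0.34 to 0.09 with the other 5 replicate 2 libraries. The changes of members called on these libraries and named below are given with and without replicate 2.

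The counts of SOX2 and SOX9 could not be read. Both genes were at 0 counts in all 132 libraries. SOX2 (ENSG00000181449, chr3:181711924-181714436, + strand, GRCh38) lies within SOX2-OT, an overlapping RNA gene that was counted, with 4178 counts over all libraries. SOX9 (ENSG00000125398, chr17:72121020-72126420, + strand) lies within SOX9-AS1 on the other strand, which had 5139 counts. Of 1418 protein-coding genes whose whole span lies inside another gene, 1345 (94.9%) were likewise at 0 in every library, compared with 625 of 18256 (3.42%) elsewhere. Genes that every cell uses were among those at 0, such as the ribosomal protein genes RPL32, RPL15, RPL35A and RPS4X and the metabolic gene MDH1. The levels of SOX2 and SOX9 are therefore reported as listed at 0 and nothing is drawn from them.

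**Figure D1:**
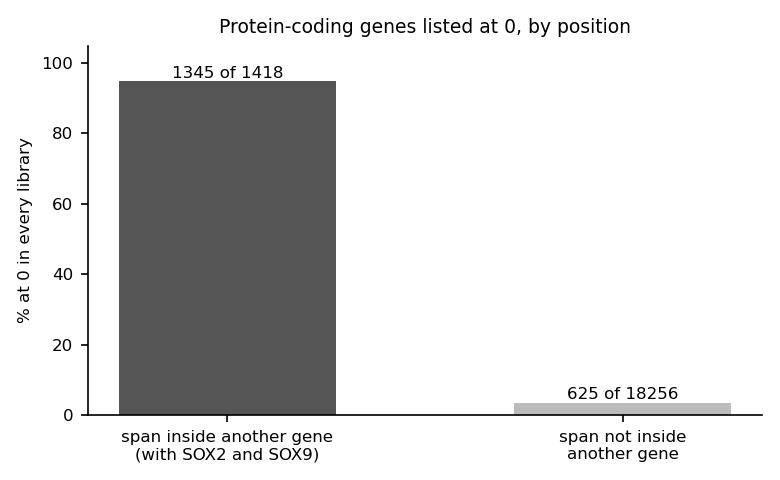
Share of protein-coding genes at 0 counts in all 132 libraries (y axis, %), for genes whose span lies inside another gene and for the remaining genes. The bar of the former, which include SOX2 and SOX9, reaches 94.9% and the other 3.42%.

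GATA6 (ENSG00000141448, chr18:22169443-22202528, + strand) overlapped other genes in part. Of its 3945 exonic bases, 2113 (53.6%) lie within the spans of the antisense genes GATA6-AS1 and AC091588.3. Whether reads from these bases were counted is not known, and the GATA6 count may come mainly from the other 1832 bases. HNF4A (ENSG00000101076, chr20:44355700-44434596, + strand) had 3.04% of its exonic bases within other genes. CDX1 (ENSG00000113722, chr5:150166795-150184558, + strand), CDX2 (ENSG00000165556, chr13:27962137-27971139, - strand) and FOXA2 (ENSG00000125798, chr20:22581005-22585455, - strand) had none, nor had GATA4.

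The promoters of CDX2 and GATA6 are shown because CDX2 rose with afatinib in 3 of the lines and GATA6 rose in MKN7 and fell in MKN1 cells. Each sequence runs 5′ to 3′ on the strand of its gene, from 250 bases before to 50 after a RefSeq transcription start (GRCh38.p14), at chr13:27969266-27969565 for CDX2 and chr18:22169339-22169638 for GATA6. Other motifs were searched as well and are not marked. Capitals mark the letters of 4 motifs, searched on both strands. These were TTTAT for the caudal factors, then AGATAA for the zinc finger factors above, further TGTTTAC for forkhead factors and last TATAAA for the core promoter element.
CDX2: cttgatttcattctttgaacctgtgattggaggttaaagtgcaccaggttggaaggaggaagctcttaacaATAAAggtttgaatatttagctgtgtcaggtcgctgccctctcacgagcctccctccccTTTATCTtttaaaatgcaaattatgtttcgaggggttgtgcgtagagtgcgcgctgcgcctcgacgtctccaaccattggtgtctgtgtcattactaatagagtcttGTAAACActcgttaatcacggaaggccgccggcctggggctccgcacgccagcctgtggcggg
GATA6: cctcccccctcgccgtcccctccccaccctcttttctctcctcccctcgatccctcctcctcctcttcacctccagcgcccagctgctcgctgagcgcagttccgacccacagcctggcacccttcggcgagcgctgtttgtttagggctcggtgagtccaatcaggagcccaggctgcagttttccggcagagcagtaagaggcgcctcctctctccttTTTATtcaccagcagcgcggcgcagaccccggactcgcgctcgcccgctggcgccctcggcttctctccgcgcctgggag
The CDX2 window held 2 matches of TTTAT, which start 179 bases (reverse strand) and 120 bases upstream of the start. The latter overlaps a reverse-strand match of AGATAA, and a reverse-strand match of TGTTTAC lies 13 bases upstream. Of the 4 marked motifs, the GATA6 window held 1 match, of TTTAT 30 bases upstream. Matches of unmarked motifs included AACAAT 183 bases upstream in the CDX2 window and CCAAT 92 bases upstream in the GATA6 window. Of 35116 promoters of the same length, 34.9% held TTTAT, 10.3% AGATAA, 3.42% TGTTTAC, 11.5% TATAAA, 10.1% AACAAT and 34.6% CCAAT. A match describes the letters and not binding. RefSeq windows were matched for 4 members, also HNF4A and SOX2, whose windows held AGATAA 26 bases upstream (the first of 2 HNF4A starts) and TTTAT 28 bases upstream.

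The members separated the lines by their level in untreated cells. The medians of CDX2, HNF4A, GATA4 and GATA6 were highest in NCI-N87 cells, followed by MKN1, MKN7 and Hs746T cells. Of the 8 members, 5 passed the filter on low counts in the fit of 24 untreated libraries, and 29 of the 30 differences between pairs of lines passed the test. The share of all 20560 genes that differed was 75.8% to 79.9% per pair of lines, so that this count is not particular to the members.

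**Figure D2:**
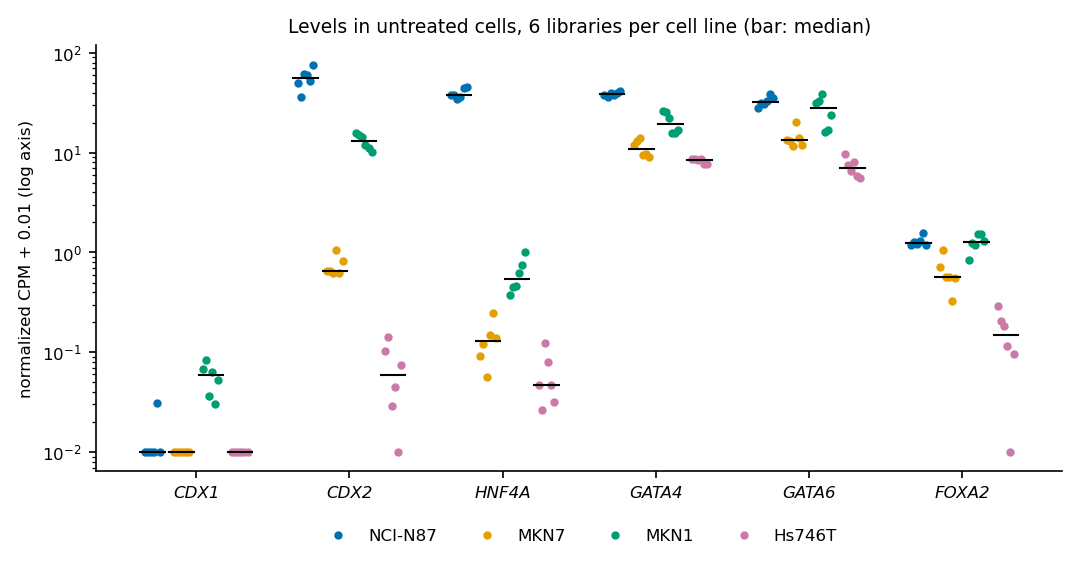
Level of 6 members in untreated cells (y axis, normalized CPM on a log axis, with a small constant added to show zeros). Points are the 6 untreated libraries of each line and bars are medians. CDX2 and HNF4A span the widest range, from medians of 55.7 and 37.9 CPM in NCI-N87 to 0.0498 and 0.0369 CPM in Hs746T cells.

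CDX2 had 35.9 CPM at the lowest, 55.7 at the median and 75.8 at the highest of the 6 untreated NCI-N87 libraries. In MKN1 cells these values were 10.2, 13.2 and 15.7 CPM and in MKN7 cells 0.606, 0.645 and 1.04 CPM. In Hs746T cells they were 0, 0.0498 and 0.132 CPM, around the level of 3 counts. The libraries of the 4 lines did not overlap. CDX2 was higher in NCI-N87 than in MKN1 cells by a log2FC of 2.07 (SE 0.14, adjusted p = 2.35e-12) and higher in MKN1 than in MKN7 cells (log2FC of MKN7 against MKN1 -4.20, SE 0.17, adjusted p = 5.76e-16). Its paralogue CDX1 was hardly detected. CDX1 had 137 counts over all 132 libraries and was at 0 in 89 of them, and 25 of the 26 libraries with at least 3 counts were MKN1 libraries. Its highest level was 0.159 CPM, and it passed the filter in none of the fits.

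HNF4A followed a steeper course. In untreated NCI-N87 cells it ranged from 34.6 to 45.9 CPM (median 37.9), in MKN1 cells from 0.367 to 1.01 CPM (median 0.531), in MKN7 cells from 0.0466 to 0.236 CPM (median 0.12) and in Hs746T cells from 0.0164 to 0.115 CPM (median 0.0369). Untreated NCI-N87 libraries had 1657 to 2102 counts of HNF4A and MKN1 libraries 17 to 47, above the smallest detectable level of 3 counts. MKN7 libraries had 2 to 12 and Hs746T libraries 1 to 6 counts, around that level. The NCI-N87 level of HNF4A exceeded that in MKN1 cells 67.3-fold (log2FC 6.07, SE 0.16, adjusted p = 2.15e-19). HNF4A libraries of MKN7 and Hs746T cells overlapped, and their difference (log2FC 1.17, SE 0.41, adjusted p = 0.0131) was lost without replicate 2 (log2FC 0.57, adjusted p = 0.347).

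The GATA factors were detected in every library and varied less. GATA4 (ENSG00000136574, chr8:11676959-11760002, + strand) had medians of 38.9 CPM in NCI-N87 (range 36.1 to 41.6), 19.5 in MKN1 (15.6 to 26.4), 10.8 in MKN7 (8.94 to 14.1) and 8.52 in Hs746T cells (7.66 to 8.71). Each line stood above the next without overlap, the closest neighbours being MKN7 and Hs746T with a log2FC of 0.39 (SE 0.07, adjusted p = 1.26e-05). GATA6 had medians of 32.3 CPM in NCI-N87 (28.2 to 38.5), 27.9 in MKN1 (16.2 to 38.5), 13.3 in MKN7 (11.6 to 20.2) and 7.05 in Hs746T cells (5.51 to 9.72). For GATA6 the libraries of NCI-N87 and MKN1 cells overlapped, and their difference (log2FC 0.33, SE 0.13, adjusted p = 0.022) was lost without replicate 2 (log2FC 0.20, adjusted p = 0.35).

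FOXA2 was low everywhere. Its medians were 1.24 CPM in NCI-N87 (range 1.17 to 1.56), 1.26 in MKN1 (0.83 to 1.53), 0.561 in MKN7 (0.314 to 1.04) and 0.139 in Hs746T cells (0 to 0.28). The difference between NCI-N87 and MKN1 cells was the one that missed the threshold, with a log2FC of 0.01 (95% interval -0.36 to 0.38, adjusted p = 0.965). Per kilobase of exonic sequence outside other genes, the median level in NCI-N87 cells was 17.6 CPM per kb for GATA6, 13.5 for CDX2, 8.75 for GATA4, 5.35 for HNF4A and 0.478 for FOXA2. GATA6 had the highest such level in all 4 lines, with 15.2 CPM per kb in MKN1, 7.26 in MKN7 and 3.85 in Hs746T cells. This order depends on the overlap with antisense genes, since over all exonic bases the GATA6 level in NCI-N87 cells is 8.19 CPM per kb, below CDX2 and GATA4.

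Each line was compared with and without afatinib at equal times to see whether blockade of the receptors alters these factors. The low count filter left 5 members in NCI-N87 and MKN1 cells, and 4 each in MKN7 cells, where HNF4A was not tested, and in Hs746T cells, where CDX2 was not tested. After 24 h, 10 of 18 member tests passed the threshold, when 62.5%, 51.6%, 25.6% and 0.0% of all genes changed in NCI-N87, MKN7, MKN1 and Hs746T cells. After 4 h 5 of 18 passed, when 18.2%, 22.2%, 3.68% and 0.0% of all genes changed, and leaving out 1 replicate gave 1 to 4 calls at 4 h and 8 to 9 at 24 h. CDX2 rose in NCI-N87, MKN7 and MKN1 cells, GATA6 rose in MKN7 and fell in MKN1 cells, and FOXA2 fell in NCI-N87 and MKN7 cells. In Hs746T cells edgeR called 0 of the 4 tested members at either time point. All 4 tested of 5 MAPK response genes fell in NCI-N87, MKN7 and MKN1 cells at 24 h, whereas in Hs746T cells edgeR and DESeq2 called 0 of 5, with 0 at an unadjusted p below 0.05. DUSP6, a phosphatase that limits MAPK activity, dropped from 45.2 ± 14.4 to 1.05 ± 0.134 CPM (SD, n = 3) in NCI-N87 cells after 24 h of afatinib (adjusted p = 4.62e-11).

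**Figure D3:**
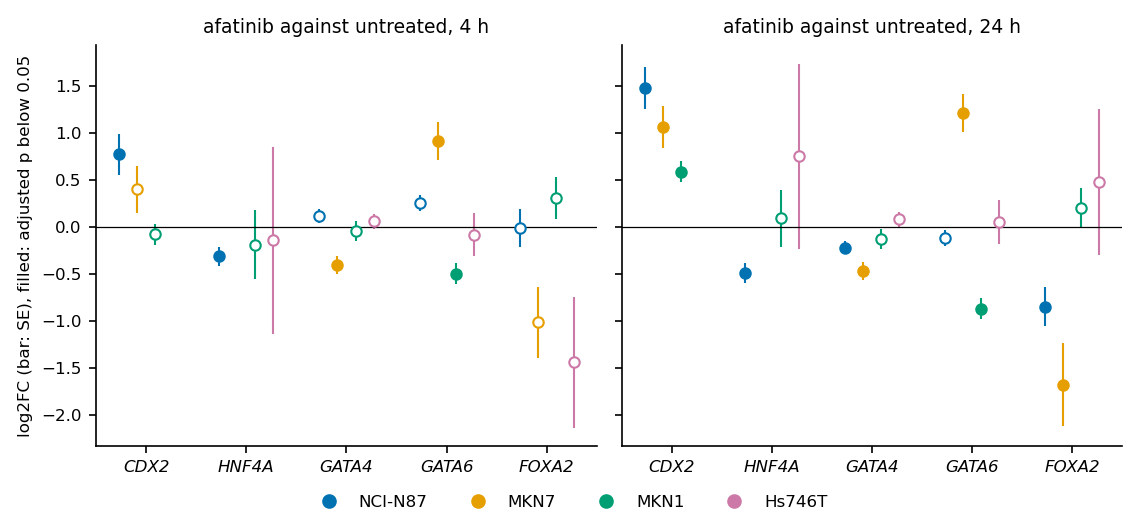
log2FC of afatinib against untreated cells (y axis) for 5 members in the 4 lines after 4 h and 24 h, with bars for the SE. Filled symbols passed an adjusted p of 0.05. At 24 h CDX2 is above 0 in NCI-N87 (1.48), MKN7 (1.06) and MKN1 cells (0.59), while GATA6 is at 1.21 in MKN7 and at -0.87 in MKN1 cells.

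In NCI-N87 cells CDX2 had 50.01, 35.9 and 61.6 CPM in the 3 untreated replicates at 4 h and 90.9, 66.6 and 93.3 CPM after 4 h of afatinib. At 24 h it had 59.3, 52.2 and 75.8 CPM untreated and 160, 155 and 219 CPM with afatinib. The treated libraries lay above all untreated ones at both time points. CDX2 rose by a log2FC of 0.77 at 4 h (SE 0.22, adjusted p = 0.0168) and of 1.48 at 24 h (SE 0.22, 2.79-fold, adjusted p = 6.25e-06). The 4 h call was lost without replicate 1 (log2FC 0.71, adjusted p = 0.178), whereas the 24 h call held when any replicate was left out. Of 5 tested members, 2 changed at 4 h, when 18.2% of all genes did, and 4 at 24 h, when 62.5% did.

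The other members moved little in NCI-N87 cells or fell. HNF4A had 35.7, 44.3 and 45.9 CPM untreated and 26.0, 31.6 and 33.8 CPM after 24 h of afatinib, with the treated libraries below the untreated ones. It fell by 0.31 on the log2 scale at 4 h (adjusted p = 0.0414) and by 0.49 at 24 h (SE 0.11, adjusted p = 0.000342). The HNF4A call at 4 h was lost without replicate 2 (adjusted p = 0.328) or replicate 3 (adjusted p = 0.0944). Scaling by library size alone shifted the median of all genes by 0.26 in this comparison at 24 h, and HNF4A then had a log2FC of -0.24 (adjusted p = 0.051). FOXA2, at 1.30, 1.56 and 1.17 CPM untreated and 0.996, 0.586 and 0.699 CPM with afatinib, fell without overlap by 0.85 on the log2 scale at 24 h (SE 0.21, adjusted p = 0.00129), a call that was lost without replicate 2 (log2FC -0.55, adjusted p = 0.0757). GATA4 had a log2FC of -0.22 at 24 h (SE 0.07, adjusted p = 0.0103), which turned to 0.04 (adjusted p = 0.676) when libraries were scaled by size alone and was lost without replicate 1 (adjusted p = 0.144) or replicate 2 (adjusted p = 0.0959). GATA6 had a log2FC of 0.25 at 4 h (adjusted p = 0.0502), which passed with the replicate number as a block (adjusted p = 0.00483).

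**Figure D4:**
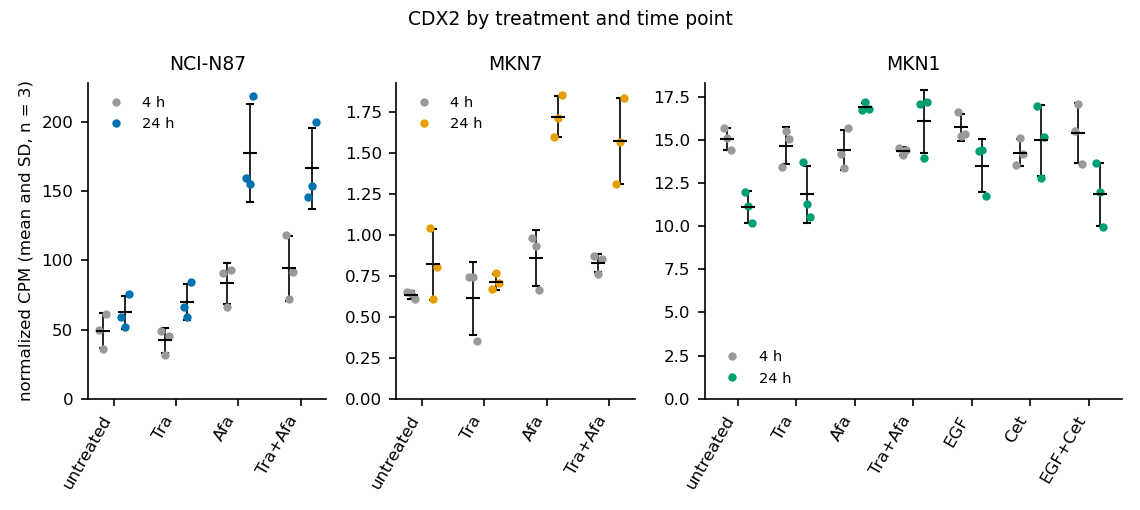
CDX2 level (y axis, normalized CPM from 0, with a separate scale for each line) by treatment and time point. Points are libraries, and marks and bars show the mean and SD of 3 replicates. In NCI-N87 cells the mean was 62.4 CPM untreated and 178 CPM with afatinib at 24 h, and in MKN7 cells 0.818 and 1.72 CPM.

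In MKN7 cells CDX2 rose as well, from a far lower level. It had 1.04, 0.609 and 0.803 CPM untreated and 1.60, 1.71 and 1.85 CPM after 24 h of afatinib (log2FC 1.06, SE 0.22, adjusted p = 0.000414), without overlap. At 4 h CDX2 did not pass (log2FC 0.40, adjusted p = 0.281). GATA6 rose at both time points. It had 13.5, 13.1 and 11.6 CPM untreated and 29.2, 24.9 and 19.8 CPM with afatinib at 4 h, and 20.2, 14.1 and 11.8 CPM untreated and 39.0, 35.6 and 33.0 CPM with afatinib at 24 h. The treated GATA6 libraries were above all untreated ones at each time point. GATA6 rose by a log2FC of 0.91 at 4 h (SE 0.20, adjusted p = 0.00219) and by 1.21 at 24 h (SE 0.20, 2.32-fold, adjusted p = 3.6e-05). The 4 h call of GATA6 was lost without replicate 2 (log2FC 0.93, adjusted p = 0.0673). Replicate 1 had the highest GATA6 level in all 8 MKN7 conditions.

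GATA4 went the other way in MKN7 cells. It had 11.9, 13.2 and 14.1 CPM untreated and 10.2, 9.76 and 10.5 CPM with afatinib at 4 h, and 9.53, 9.60 and 8.94 against 6.45, 7.45 and 6.51 CPM at 24 h. The GATA4 groups did not overlap, and GATA4 fell by 0.41 (SE 0.09, adjusted p = 0.00328) and by 0.47 (SE 0.10, adjusted p = 0.000361) on the log2 scale. At 4 h this was lost without replicate 2 (adjusted p = 0.0555). FOXA2 had 0.562, 0.314 and 0.542 CPM untreated and 0.121, 0.269 and 0.0377 CPM after 24 h of afatinib, and fell without overlap by 1.68 on the log2 scale (SE 0.44, adjusted p = 0.0031). The lowest of these libraries had 2 counts of FOXA2, below the smallest detectable level of 3 counts. Without replicate 1 or 3 the FOXA2 call at 24 h was lost (adjusted p = 0.0771 and 0.0674), and at 4 h FOXA2 passed only with the replicate block (log2FC -1.02, adjusted p = 0.0582, with the block 0.0277). In MKN7 cells 22.2% of all genes changed at 4 h, where 2 of 4 tested members did, and 51.6% at 24 h, where all 4 did.

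The antisense gene GATA6-AS1, which overlaps the start of GATA6 on the other strand, changed with GATA6 in MKN7 cells after afatinib, but not in each comparison. It rose from 0.632 ± 0.249 to 2.49 ± 0.511 CPM (SD, n = 3) at 4 h (log2FC 1.93, adjusted p = 0.000337) and from 1.51 ± 0.573 to 6.80 ± 1.08 CPM at 24 h (log2FC 2.16, adjusted p = 5.07e-06). In NCI-N87 cells GATA6-AS1 also rose at 24 h (log2FC 1.71, adjusted p = 0.000846), where GATA6 had a log2FC of -0.12 (adjusted p = 0.251). In MKN1 cells at 24 h the log2FC of GATA6-AS1 was -0.22 with afatinib (adjusted p = 0.659) and 0.14 with EGF (adjusted p = 0.753). GATA6 changed with both treatments there. In untreated MKN7 cells GATA6-AS1 rose from 4 h to 24 h (log2FC 1.22, adjusted p = 0.0248), where GATA6 was not called. The library kit keeps the strand, but the strand setting of the counting is not given in the sources used here. Whether reads from the bases shared by GATA6 and GATA6-AS1 were counted for either gene is therefore not known.

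In MKN1 cells CDX2 and GATA6 moved in opposite directions. CDX2 had 12.0, 11.2 and 10.2 CPM untreated and 16.7, 17.2 and 16.8 CPM after 24 h of afatinib, a rise with a log2FC of 0.59 (SE 0.11, adjusted p = 0.000213). GATA6 had 16.2, 16.7 and 24.0 CPM untreated and 9.83, 11.7 and 10.0 CPM with afatinib at 24 h, and fell by 0.87 on the log2 scale (SE 0.11, adjusted p = 1.25e-06). Neither pair of groups overlapped, and both 24 h calls held when any replicate was left out. At 4 h GATA6 had 31.8, 32.7 and 38.5 CPM untreated and 23.6, 25.0 and 25.1 CPM with afatinib (log2FC -0.50, SE 0.11, adjusted p = 0.00594), a call lost without replicate 1 (adjusted p = 0.1) or replicate 2 (adjusted p = 0.0721). CDX2 did not pass at 4 h (log2FC -0.08, adjusted p = 0.846). GATA6 was the member of 5 tested that changed at 4 h, when 3.68% of all genes changed, and CDX2 and GATA6 were the 2 that changed at 24 h, when 25.6% did.

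In Hs746T cells no member passed the test with any treatment. GATA4 had 8.70, 7.66 and 7.71 CPM untreated and 9.31, 7.95 and 8.28 CPM after 24 h of afatinib, and GATA6 had 7.97, 5.76 and 5.51 against 8.47, 5.34 and 6.26 CPM. The groups overlapped for both genes. Over the 12 comparisons of a treatment in this line, the log2FC of GATA4 lay between -0.06 and 0.11 (95% intervals within -0.22 and 0.27) and that of GATA6 between -0.08 and 0.06 (within -0.53 and 0.51). For FOXA2 and HNF4A, which were near the smallest detectable level, the intervals reached from -2.80 to 3.28, so that changes of several-fold were not detectable at this depth. edgeR and DESeq2 called 0 of 48 member tests in these 12 comparisons, and edgeR called 0.0% of all genes in the afatinib comparisons. At an unadjusted p below 0.05 there was 1 member, FOXA2 with afatinib at 4 h.

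Whether the effect of afatinib differed between lines was tested directly with interaction contrasts. At 24 h 10 of 30 differences passed and at 4 h 2 of 30, both of GATA6. Per pair of lines, 3.85% to 37.1% of all genes differed at 24 h and 0.233% to 6.53% at 4 h. The GATA6 effect at 24 h was higher in MKN7 than in MKN1 cells by 2.07 on the log2 scale (SE 0.24, adjusted p = 2.47e-07), and at 4 h by 1.43 (SE 0.24, adjusted p = 0.000427), where 7.57% and 1.11% of all genes differed. It was higher in MKN7 than in Hs746T cells by 1.17 at 24 h (SE 0.25, adjusted p = 0.000663), where 19.4% of genes differed. The 4 h difference of GATA6 between MKN7 and MKN1 cells was lost without replicate 2 (adjusted p = 0.115), as was the 24 h difference to Hs746T cells (adjusted p = 0.0661). The CDX2 effect at 24 h was higher in NCI-N87 than in MKN1 cells by 0.91 (SE 0.24, adjusted p = 0.00279, 29.5% of genes), but not without replicate 1 (0.86, adjusted p = 0.0802). Between NCI-N87 and MKN7 cells, where CDX2 started from levels 76.8-fold apart, its effect differed by 0.44 (95% interval -0.12 to 1.01, adjusted p = 0.299). With the replicate number as a block, 7 of the 30 differences passed at 4 h. The shares of all genes with the block are not given here, so that this count is not read as particular to the members. The 5 added were GATA4 and GATA6 between NCI-N87 and MKN7 cells (adjusted p = 0.00342 and 0.000623, without the block 0.0688 and 0.242), CDX2 and GATA6 between NCI-N87 and MKN1 cells (4.83e-05 and 0.000148, without the block 0.0639 and 0.138), and GATA4 between MKN7 and Hs746T cells (0.0135, without the block 0.0791). At 24 h the block added GATA4 between NCI-N87 and MKN7 cells (0.0424, without the block 0.132) and between NCI-N87 and Hs746T cells (0.0407, without the block 0.111).

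**Figure D5:**
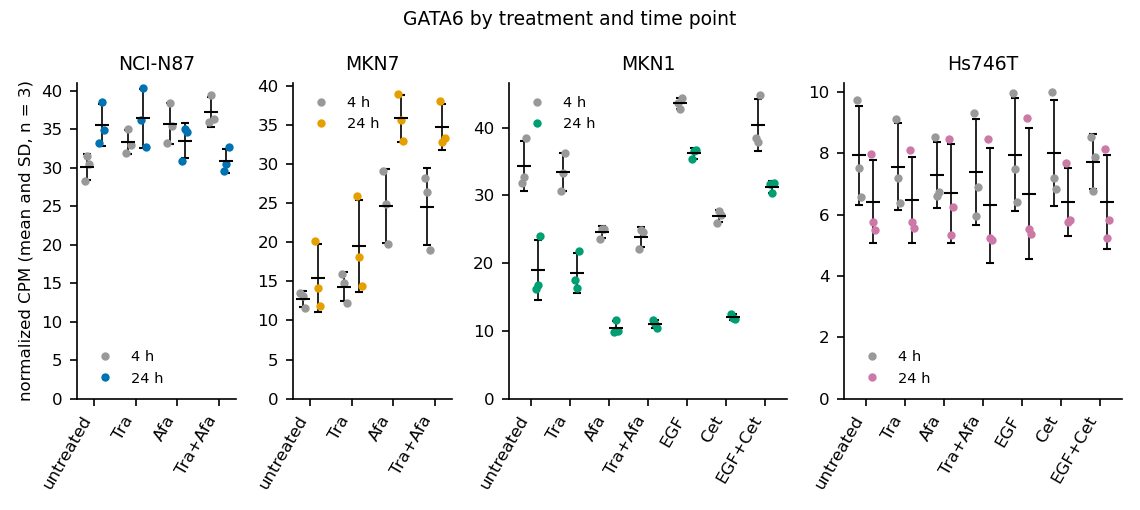
GATA6 level (y axis, normalized CPM from 0, with a separate scale for each line) by treatment and time point. Points are libraries, and marks and bars show the mean and SD of 3 replicates. At 24 h the mean with afatinib is 35.9 CPM in MKN7 cells, against 15.4 untreated, and 10.5 CPM in MKN1 cells, against 19.0 untreated. In MKN1 cells the mean with EGF is 36.2 CPM at 24 h.

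Trastuzumab, which binds HER2 from outside, was compared with untreated cells in the same way. edgeR called 0 of 36 member tests over the 4 lines and both time points. At an unadjusted p below 0.05 there was 1, FOXA2 in MKN7 cells at 4 h, and DESeq2 also called 0. Among all genes 0.0% changed. In NCI-N87 cells CDX2 had 66.1, 59.3 and 84.7 CPM after 24 h of trastuzumab, against 59.3, 52.2 and 75.8 CPM untreated, and the groups overlapped (log2FC 0.15, 95% interval -0.28 to 0.58). The GATA4 log2FC with trastuzumab was between -0.04 and 0.07 in the 4 lines, with intervals within -0.22 and 0.26.

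Trastuzumab + afatinib shared its untreated controls with afatinib, so that the values are given side by side. CDX2 in NCI-N87 cells had a log2FC of 1.38 with the combination at 24 h (SE 0.22, adjusted p = 1.37e-05) and 1.48 with afatinib. GATA6 in MKN7 cells had 1.17 (SE 0.20, adjusted p = 5.28e-05) and 1.21, and GATA6 in MKN1 cells -0.81 (SE 0.11, adjusted p = 3.16e-06) and -0.87. Leaving out replicate 2, whose combination library stood apart, gave -0.87 (adjusted p = 0.00054) for GATA6 in MKN1 cells with the combination. In total 18 of 36 member tests passed, with 17.3% and 64.7% of all genes changed in NCI-N87, 23.4% and 51.9% in MKN7 and 3.95% and 26.8% in MKN1 cells at 4 h and 24 h.

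Set against trastuzumab alone, with its own libraries as controls, the combination changed 15 of 36. CDX2 in NCI-N87 cells had 49.2, 31.6 and 45.5 CPM with trastuzumab and 119, 72.4 and 91.8 CPM with the combination at 4 h, and rose by a log2FC of 1.16 (SE 0.22, adjusted p = 0.000599, 19.7% of all genes). At 24 h CDX2 rose by 1.23 in NCI-N87 (SE 0.22, adjusted p = 5.93e-05), by 1.12 in MKN7 (SE 0.23, adjusted p = 0.000441) and by 0.41 in MKN1 cells (SE 0.11, adjusted p = 0.00564), where 61.8%, 44.4% and 27.9% of genes changed. The MKN1 call of CDX2 was lost without replicate 3 (log2FC 0.29, adjusted p = 0.174), and without replicate 2, whose combination library stood apart, the log2FC was 0.49 (adjusted p = 0.0126). GATA6 at 24 h rose by 0.82 in MKN7 cells (SE 0.20, adjusted p = 0.00212), a call lost without replicate 2 (log2FC 0.81, adjusted p = 0.0554). In MKN1 cells at 24 h GATA6 fell by 0.78 on the log2 scale (SE 0.11, adjusted p = 5.38e-06), with a log2FC of -0.85 without replicate 2 (adjusted p = 0.000652). At 4 h 20.5% of all genes changed in MKN7 and 3.08% in MKN1 cells. In NCI-N87 cells the log2FC of GATA6 and GATA4 at 24 h was -0.26 for both (adjusted p = 0.0144 and 0.00325), which turned to 0.02 for both when libraries were scaled by size alone. Without replicate 1 both calls were lost (adjusted p = 0.124 and 0.0502), and without replicate 2 that of GATA6 (adjusted p = 0.209). With the replicate block GATA4 in NCI-N87 cells also passed at 4 h (log2FC 0.18, adjusted p = 0.0786, with the block 0.0366).

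In MKN1 cells the receptor was also stimulated with EGF and blocked with cetuximab. GATA6 followed both: it was higher with EGF and lower with cetuximab. At 24 h GATA6 had 16.2, 16.7 and 24.0 CPM untreated, 35.3, 36.6 and 36.7 CPM with EGF and 12.5, 12.0 and 11.7 CPM with cetuximab, and no libraries of these 3 groups overlapped. The log2FC against the shared untreated libraries was 0.95 with EGF (SE 0.11, 1.93-fold, adjusted p = 6.08e-08) and -0.67 with cetuximab (SE 0.11, adjusted p = 0.000273). Both calls held when any replicate was left out, and without replicate 2, whose cetuximab library stood apart, the latter was -0.73 (adjusted p = 0.00796). The EGF libraries at 24 h lay within the range of the untreated libraries at 4 h (31.8 to 38.5 CPM). In untreated cells GATA6 fell from 4 h to 24 h. At 4 h GATA6 had 43.7, 42.8 and 44.3 CPM with EGF, above the untreated 31.8, 32.7 and 38.5 CPM (log2FC 0.35, SE 0.11, adjusted p = 0.0446). This call was lost without replicate 1 (adjusted p = 0.461) or replicate 2 (adjusted p = 0.235) and with library size scaling (log2FC 0.25, adjusted p = 0.185). With cetuximab at 4 h GATA6 had 26.0, 27.8 and 27.1 CPM (log2FC -0.36, adjusted p = 0.118), which passed with the replicate block (adjusted p = 0.013).

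GATA4 was higher with EGF than in untreated cells at 24 h, when untreated cells had less GATA4 than at 4 h. It had 15.9, 15.6 and 16.7 CPM untreated and 26.0, 23.8 and 21.5 CPM with EGF (log2FC 0.58, SE 0.11, adjusted p = 5.37e-05), without overlap. With cetuximab GATA4 had 16.8, 13.7 and 13.6 CPM (log2FC -0.14, adjusted p = 0.422). CDX2 had 14.4, 14.5 and 11.7 CPM with EGF at 24 h, against 12.0, 11.2 and 10.2 CPM untreated, and the groups overlapped (log2FC 0.30, SE 0.11, adjusted p = 0.036). Library size scaling shifted the median of all genes by -0.20 in this comparison and left CDX2 at a log2FC of 0.10 (adjusted p = 0.48), and its call was lost without any one of the replicates (adjusted p = 0.0697 to 0.179). With cetuximab at 24 h CDX2 had 17.0, 12.8 and 15.2 CPM, above all untreated libraries (log2FC 0.41, SE 0.11, adjusted p = 0.0157), but the call was lost without replicate 1 (adjusted p = 0.142) or replicate 3 (adjusted p = 0.267). Without replicate 2 its log2FC with cetuximab was 0.54 (adjusted p = 0.0202). In all, 4 of 10 member tests passed with EGF and 2 of 10 with cetuximab. Of all genes, 6.82% changed with EGF at 4 h and 35.8% at 24 h, and 1.43% and 10.8% with cetuximab.

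With EGF + cetuximab at 24 h GATA6 had 31.7, 30.3 and 31.8 CPM, above the untreated libraries (log2FC 0.73, SE 0.11, adjusted p = 2.58e-05) and below the EGF libraries. GATA4 had 24.0, 19.8 and 19.9 CPM (log2FC 0.41, SE 0.11, adjusted p = 0.0061), and HNF4A 0.304, 0.353 and 0.508 CPM against 0.613, 0.744 and 1.01 CPM untreated (log2FC -1.02, SE 0.33, adjusted p = 0.0305). The GATA4 call was lost without replicate 1 (adjusted p = 0.197) or 2 (adjusted p = 0.0584), as was that of HNF4A (adjusted p = 0.183 and 0.168). With EGF alone HNF4A had 0.353, 0.361 and 0.615 CPM (log2FC -0.79, adjusted p = 0.0592). The comparison with untreated cells called 3 of 10 member tests, with 0.717% of all genes at 4 h and 18.6% at 24 h. Compared with EGF alone, EGF + cetuximab called 0 of 10 in edgeR and in DESeq2, with 1 at an unadjusted p below 0.05, GATA6 at 24 h (log2FC -0.23, 95% interval -0.44 to -0.01, adjusted p = 0.483). In that comparison 0.701% and 0.646% of all genes changed. In Hs746T cells edgeR and DESeq2 called 0 of 24 member tests with EGF, cetuximab or both, none was below an unadjusted p of 0.05, and 0.0% of all genes changed.

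Untreated cells of the same line also differed between the 2 time points, which bears on comparisons across time. In MKN1 cells GATA6 had 31.8, 32.7 and 38.5 CPM at 4 h and 16.2, 16.7 and 24.0 CPM at 24 h, and fell by 0.88 on the log2 scale (SE 0.11, adjusted p = 2.32e-07). GATA4 fell by 0.65 (SE 0.11, adjusted p = 1.05e-05) and CDX2 by 0.46 (SE 0.11, adjusted p = 0.00175) on the same scale, each without overlap. HNF4A had a log2FC of 0.89 (adjusted p = 0.0405), lost without any one of the replicates (adjusted p = 0.0984 to 0.137). With 4 of 5 tested members called, 34.1% of all genes changed, and library size scaling shifted their median by 0.17. In MKN7 cells GATA4 fell by 0.52 on the log2 scale (SE 0.09, adjusted p = 0.00117, 1 of 4 members, 16.4% of all genes). In NCI-N87 and Hs746T cells 0 members were called by edgeR and by DESeq2, with 1 at an unadjusted p below 0.05 in each line (GATA6 in NCI-N87 and FOXA2 in Hs746T cells), and 0.267% and 1.48% of all genes changed. GATA6 passed in both lines with the replicate block, with a log2FC of 0.25 in NCI-N87 (adjusted p = 0.28, with the block 0.0289) and -0.28 in Hs746T cells (adjusted p = 0.825, with the block 0.0343).

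Other transcription factors of the gut epithelium, 26 genes, were read beside the members after 24 h of afatinib. In NCI-N87 cells 6 rose and 10 fell of 22 tested (median log2FC -0.34, all genes 0.03), where 62.5% of all genes changed. FOXQ1, a forkhead factor, went from 130 ± 17.1 to 21.0 ± 2.63 CPM (SD, n = 3; log2FC -2.66, adjusted p = 8.61e-13) and BHLHA15, a factor of secretory cells, from 3.47 ± 0.466 to 0.669 ± 0.171 CPM (log2FC -2.41, adjusted p = 1.88e-08). In MKN7 cells, where 51.6% of all genes changed, 2 rose and 2 fell of 17, among them ELF3, an epithelial ETS factor (log2FC 1.45, adjusted p = 2.31e-05), and KLF4, a factor of differentiating epithelium (log2FC -1.31, adjusted p = 2.81e-07). In MKN1 cells 2 rose and 4 fell of 21, where 25.6% of all genes changed. There FOXQ1 rose (log2FC 1.20, adjusted p = 9.42e-08), and BARX1, a homeobox factor of the stomach mesenchyme, fell by 0.60 on the log2 scale (adjusted p = 0.000503). With EGF at 24 h in MKN1 cells 7 rose and 2 fell of 21, where 35.8% of all genes changed, with ELF3 at a log2FC of -0.96 (adjusted p = 2.93e-07). In Hs746T cells edgeR and DESeq2 called 0 of 16 with afatinib, with 1 at an unadjusted p below 0.05.

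Intestinal genes, many of which are known CDX2 and HNF4A targets, were tested as a list of 21. After 24 h of afatinib 3 rose and 2 fell of 12 tested in NCI-N87, 5 rose and 0 fell of 10 in MKN7, and 3 rose and 2 fell of 10 in MKN1 cells, where 62.5%, 51.6% and 25.6% of all genes changed. GUCY2C, the guanylin receptor of the intestine, rose in all 3 lines, with a log2FC of 0.96 in NCI-N87 (adjusted p = 1e-05), 0.46 in MKN7 (adjusted p = 0.00441) and 0.59 in MKN1 cells (adjusted p = 0.0088). MUC13, a membrane mucin gene, and KRT20, an intestinal keratin gene, fell in NCI-N87 cells by 1.45 (adjusted p = 6.17e-05) and 0.99 (adjusted p = 1.42e-05) on the log2 scale. DPP4, a brush border peptidase gene, rose in MKN7 cells (log2FC 1.98, adjusted p = 2.38e-06). The medians of the list were 0.15, 0.64 and 0.10, against 0.03, 0.04 and 0.01 for all genes.

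Gastric genes, also a list of 21, had 3 higher and 3 lower of 12 tested in NCI-N87, 1 higher and 4 lower of 10 in MKN7 and 1 higher and 0 lower of 11 in MKN1 cells after 24 h of afatinib, beside the same 62.5%, 51.6% and 25.6% of all genes. MUC5AC, the mucin of surface mucous cells, went from 143 ± 28.7 to 13.4 ± 2.67 CPM in NCI-N87 cells (log2FC -3.45, adjusted p = 1.11e-08), and the trefoil factor gene TFF2 fell by 2.73 on the log2 scale in MKN7 cells (adjusted p = 2.94e-07). ANXA10 rose in NCI-N87 (log2FC 1.11, adjusted p = 0.00399) and CLDN18 in MKN1 cells (log2FC 0.77, adjusted p = 0.00269). The medians of the gastric list were 0.08, -0.33 and -0.28, against 0.03, 0.04 and 0.01 for all genes. Of the epithelial markers, 1 rose and 3 fell of 6 in NCI-N87, with EPCAM at a log2FC of -0.80 (adjusted p = 2.26e-07), 0 rose and 4 fell of 6 in MKN7 and 1 rose and 1 fell of 6 in MKN1 cells, again beside these shares. Their part in the changes of the members was not tested.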

How the data were processed

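mRNA was purified from the 132 samples, made into directional libraries and sequenced paired end on a NovaSeq. The authors deposited 1 table with the read counts of every library by Ensembl identifier, raw and not normalized, and the submitters' processing notes name Trim Galore, STAR and hg38. The counting tool, its annotation and strand setting and the aligner's parameters are not given in the sources used here. Counts on all 37 mitochondrial identifiers were 0. Positions were taken from GENCODE release 29.

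edgeR 4.0.16 (R 4.3.3) was applied to the counts as deposited, with TMM factors and the quasi-likelihood test (glmQLFit, glmQLFTest), after filterByExpr at its count limit of 10 per library and 15 in total. All libraries of a line were fitted together with 1 mean per condition and no term for the replicate number. Where same-numbered libraries correlated, this fit can miss changes that the fit with a replicate block calls. Lines were compared in a fit of the 24 untreated libraries, and effects of afatinib between lines in a fit of 48 untreated and afatinib libraries. A gene changed at a Benjamini-Hochberg adjusted p below 0.05 over all genes tested. Intervals are the log2FC with 1.96 SE on each side. Log2 CPM used a prior count of 2. The fitting steps were also run on simulated counts of independent libraries. These lack the correlation between same-numbered libraries, so that this run does not bear on it. The labels do not say whether replicates were separate cultures, so p-values measure the spread between these libraries.

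The members, lists and tests were chosen with earlier results of these data known. Beside the 8 members, at most 3 genes per list and comparison are named, those with the largest absolute log2FC among changed genes with a mean log2 CPM above 0, and marker genes for their level. The 3 genes most correlated with a member over conditions are named in the closing section. Replicate numbers are shared by the labels of all conditions. Deviations of same-numbered libraries correlated with a mean r of 0.55 to 0.84 in 7 of the 8 combinations of line and time, with every pair over 0.1. In MKN1 cells at 24 h the mean was 0.45, with 53 of 63 pairs over 0.1, so that numbers were not taken to pair there. The 9 alternatives were library size scaling, DESeq2 1.42.0, no filter, a filter of 10 counts in each library, fits of the compared groups, the replicate block and leaving out each replicate. Of 132 pairs of replicates 0 were identical. Plots were made in matplotlib 3.10.9 (Python 3.11.15).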

Additional observations from a re-analysis of the deposited data

Results flagged for a closer look

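The effect of afatinib differed between lines, by a test of the difference itself, for the following members (log2FC in the first line minus that in the second). For GATA6 at 24 h the difference was -1.30 between NCI-N87 and MKN7 cells (adjusted p = 6.98e-05, 22.7% of all genes), 0.77 between NCI-N87 and MKN1 (adjusted p = 0.0128), 2.07 between MKN7 and MKN1, 1.17 between MKN7 and Hs746T and -0.90 between MKN1 and Hs746T cells (adjusted p = 0.03, 3.85% of all genes). At 4 h it was 1.43 between MKN7 and MKN1 and 1.07 between MKN7 and Hs746T cells (adjusted p = 0.00569, 4.81% of all genes). GATA6 thus differed in 7 of the 12 listed differences. Without replicate 2 the GATA6 differences between NCI-N87 and MKN1 (0.94, adjusted p = 0.0692), MKN7 and MKN1 at 4 h (adjusted p = 0.115), MKN7 and Hs746T at 4 h (adjusted p = 0.229) and 24 h (adjusted p = 0.0661) and MKN1 and Hs746T cells (-1.15, adjusted p = 0.135) were lost, and without replicate 3 that between NCI-N87 and MKN1 (adjusted p = 0.14) and that between MKN1 and Hs746T cells (adjusted p = 0.605).

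For FOXA2 at 24 h the difference was -1.03 between NCI-N87 and MKN1 (adjusted p = 0.0439), -1.88 between MKN7 and MKN1 (adjusted p = 0.00883) and -2.10 between MKN7 and Hs746T cells (adjusted p = 0.0301), at levels of at most 1.95 CPM. In MKN7 cells FOXA2 reached down to 0.0377 CPM (2 counts). None of the 3 FOXA2 differences held without replicate 1 (adjusted p = 0.108 to 0.263) or replicate 3 (adjusted p = 0.216 to 0.309). For CDX2 at 24 h it was 0.91 between NCI-N87 and MKN1 cells, lost without replicate 1 (adjusted p = 0.0802). For GATA4 at 24 h it was -0.54 between MKN7 and Hs746T cells (adjusted p = 0.00318), lost without replicate 1 (adjusted p = 0.0589). In NCI-N87 against Hs746T cells, where 37.1% of all genes differed at 24 h and 6.53% at 4 h, edgeR and DESeq2 called 0 of 10 member differences, with 2 at an unadjusted p below 0.05, and none of the differences listed involves HNF4A or CDX1. The remaining 4 h comparisons had 0.84% of all genes called between NCI-N87 and MKN7, 1.62% between NCI-N87 and MKN1 and 0.233% between MKN1 and Hs746T cells, with 0 members each by edgeR. Members at an unadjusted p below 0.05 numbered 3, 2 and 1 of 5 in these comparisons, and DESeq2 called 1, 1 and 0.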

How the results depend on the processing

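Of 902 log2FC values of 103 called member results under the alternatives, 779 kept direction and call, 118 lost the call and 5 reversed. DESeq2 and the replicate block kept all 103. The reversals came with scaling by library size alone, in NCI-N87 cells at 24 h: GATA4 0.039 with afatinib, 0.009 with trastuzumab + afatinib and 0.022 with the combination against trastuzumab, and GATA6 0.07 and 0.019 in the latter comparisons. That scaling shifted the median of all genes by 0.307 with the combination and by 0.115 with afatinib in MKN7 cells.

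Members changed by EGF in MKN1 cells numbered 4, and 2 both without a filter and with only the groups compared. For cetuximab they numbered 2, and 1 with only the groups compared. Of the differences between untreated lines 29 of 30 passed, and 12 of 12 tested with at least 10 counts in every library, where fewer genes enter. Afatinib effects differed between lines at 4 h for 2, and for 4 with library size scaling, 5 with DESeq2, 4 with at least 10 counts and 7 with the replicate block. The shares of all genes under these alternatives are not given here, so that these counts are not read as particular to the members. The cause was not tested.

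Leaving out each replicate gave 1 to 4 members changed by afatinib at 4 h (5 with all), 8 to 9 at 24 h (10), 10 to 12 by trastuzumab + afatinib (18), 9 to 13 by afatinib added to trastuzumab (15), 2 to 4 by EGF (4), 1 to 2 by cetuximab (2), 1 to 3 by EGF + cetuximab (3) and 4 over time (5), with 27 to 29 between lines (29). Differences in the afatinib effect numbered 0 to 2 at 4 h (2) and 5 to 7 at 24 h (10). Counts of 0 stayed at 0.

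The replicate block added calls in MKN1 cells at 24 h, where the numbers were not taken to pair samples: HNF4A with EGF (adjusted p = 0.00372) and GATA4 with trastuzumab + afatinib against untreated (0.00696) and against trastuzumab (0.0029), and in the afatinib effect HNF4A between NCI-N87 and MKN1 (0.0385) and GATA4 between MKN7 and MKN1 cells (0.022). Other changes of call with the block stand beside their results. Of 396 counts of other lists, 327 stayed within 1.5 times. Depth limits CDX1, both HNF4A and FOXA2 in MKN7 cells and, in Hs746T cells, CDX2, HNF4A and FOXA2.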

Other observations

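Over the means of the 44 conditions, which share lines and so are not independent, the protein-coding genes most like CDX2 in log2 CPM were PLEKHG6 (Pearson's r 0.993), LITAF (0.987) and MAPK15 (0.986) among 14040 genes. For HNF4A they were ITGB7 (0.989), USH1C (0.988) and DSG3 (0.987), for GATA4 SLC9A3R1 (0.972), YBX3 (0.971) and SOCS7 (0.971), for GATA6 TGFB2 (0.94), PAWR (0.939) and IQCK (0.938), and for FOXA2 IGFBP2 (0.969), SIPA1L2 (0.966) and ATP5F1C (0.965). Within the 8 conditions of NCI-N87 cells CDX2 was most like CXXC5 (0.999), ZFP36L2 (0.997) and C3orf18 (0.997), and within those of MKN7 cells most like KCNQ1 (0.999), NEK10 (0.997) and USP40 (0.995). GATA6 was most like HSPB8 (0.999), CBLB (0.998) and SLC29A3 (0.998) in MKN7 cells and like BRIX1 (0.997), RIOK1 (0.996) and WDR43 (0.996) over the 14 conditions of MKN1 cells.

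GATA6 had its highest level in replicate 1 in 14 of 14 conditions of Hs746T and 8 of 8 of MKN7 cells, and in replicate 2 in 7 of 8 of NCI-N87 cells. CDX2 was highest in replicate 3 in 6 of 8 conditions of NCI-N87 cells. Over conditions of a line, the mean log2 CPM of GATA6 ranged over 2.05 units in MKN1, 1.49 in MKN7, 0.36 in Hs746T and 0.31 in NCI-N87 cells, and that of CDX2 over 2.09 units in NCI-N87, 1.5 in MKN7, 1.36 in Hs746T, where it was near 0, and 0.61 in MKN1 cells.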
